A study of Homo sapiens with 3 samples.

Results

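The levels of hsa-miR-26a, hsa-miR-26b and hsa-miR-101 were described in RNA that was pulled down with Argonaute2 (Ago2) from Hep G2, an established cell line grown from a human liver tumour. The 3 miRNAs were taken by their exact names among the non-control spots of Agilent human miRNA arrays, which carried 851 human miRNA names. The non-treated (NT) cells were not transfected. The miR-195 cells received 5 nM of a synthetic mimic of miR-195 and the miR-497 cells 5 nM of a mimic of miR-497, both with the lipid reagent, and Ago2 immunoprecipitation (Ago2-IP) followed after 24 hours. Each Ago2-IP gave 10 ng of RNA for Cy3 labelling and 1 array, so that a group held 1 array and no replicate. No test between groups was therefore possible, and differences are given by their size. A mimic and the transfection itself cannot be told apart in either comparison with the NT array, and both comparisons share that array.

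A miRNA acts from within Ago2, where its seed, the stretch near the 5′ end, pairs with target mRNAs and leads to their repression. The miR-26 family and miR-101 are known for repressing EZH2, the enzyme of Polycomb repressive complex that methylates histone H3 and silences genes, and all 3 are often reduced in liver cancer. Signal in an Ago2-IP is therefore taken as a reading of loaded, potentially active miRNA. The arrays held Ago2-IP RNA only, with no RNA from before the pulldown and no pulldown without the Ago2 antibody. Carry-over of unbound miRNA was therefore not tested. The same amount of RNA was labelled for each array, so a signal is a share of the labelled RNA. It gives neither loading per cell nor RNA recovered, and less of either cannot be told apart on an array.

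The mature sequences, from RefSeq (GRCh38.p14), are shown because the shared seed of the miR-26 pair and the separate seed of miR-101 define the members, with the seed (bases 2 to 8) in capitals. The seed relatives miR-1297 and miR-144 are shown for comparison.
hsa-miR-26a: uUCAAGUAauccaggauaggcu
hsa-miR-26b: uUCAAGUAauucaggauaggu
hsa-miR-101: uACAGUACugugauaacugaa
hsa-miR-1297: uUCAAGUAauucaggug
hsa-miR-144: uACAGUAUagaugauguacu

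miR-26a and miR-26b held the same base at 19 of 21 compared positions. The differences, counted from 1 at the 5′ end with the miR-26a base first, were C11U and C21U, and miR-26a was longer by its last base. Their first 10 bases, and with them the whole seed, were the same. miR-101 matched miR-26a at only 2 of 7 seed positions, whereas it matched miR-144 at 6 of 7, with the difference C8U. In the RefSeq annotation the miR-26 genes MIR26A1, MIR26A2 and MIR26B lay within CTDSPL, CTDSP2 and CTDSP1, which encode small phosphatases of 1 family, and the miR-101 genes MIR101-1 and MIR101-2 within JAK1, a cytokine receptor kinase, and RCL1.

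Each array held 15024 non-control spots, and no spot was saturated. Signals on the miR-497 array were the dimmest. The 75th percentile over the 183 probes that all 3 arrays showed well above background, the value by which arrays were scaled, was 827 (NT), 778 (miR-195) and 263 units (miR-497), and 168, 153 and 121 human names were well above background. Negative control spots averaged 4.01 to 4.85 units. The labels were checked by the transfected miRNAs, with miR-195 at 38522 units on its own array against 45.3 and 32.8 on the NT and miR-497 arrays, and miR-497 at 7903 against 11.8 and 45.4 on the NT and miR-195 arrays. Of the liver markers, miR-192 and miR-194 were well above background on all 3 arrays and miR-122, the defining miRNA of hepatocytes, on none. Of 5 blood cell markers, 3 (miR-486-5p, miR-142-3p and miR-142-5p) were well above background on all 3 arrays, with a summed signal over the list of 1964, 1636 and 510 units on the NT, miR-195 and miR-497 arrays, while the red cell miRNA miR-451 and the myeloid miRNA miR-223 were on none. No marker of endothelium, muscle, neurons or pluripotent cells was well above background.

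All 3 miRNAs were found in Ago2-IP RNA on every array. The signal is the mean over the spots of a probe, summed over the 2 probes of each miRNA. It is given with the SD between spots of the same array, which covers technical spread within an array only. That SD is the spread of single spots and is wider than the error of their mean. For miR-26a the signal was 269 ± 65.2 units in NT cells, 204 ± 26.1 after the miR-195 mimic and 65.4 ± 9.69 after the miR-497 mimic. The NT and miR-195 values lay within the NT spot SD of each other, and the miR-497 value lay far below both. For miR-26b it was 1600 ± 60.1, 1607 ± 32.0 and 546 ± 67.8 units in the same order. Here the NT and miR-195 arrays were almost level and the miR-497 array was again the lowest. For miR-101 it was 155 ± 14.3, 130 ± 19.4 and 47.8 ± 8.73 units. The order from NT to miR-195 to miR-497 was thus that of miR-26a, with the first pair of arrays close together. Levels of different miRNAs were not set against each other, since probes differ in affinity.

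**Figure D1:**
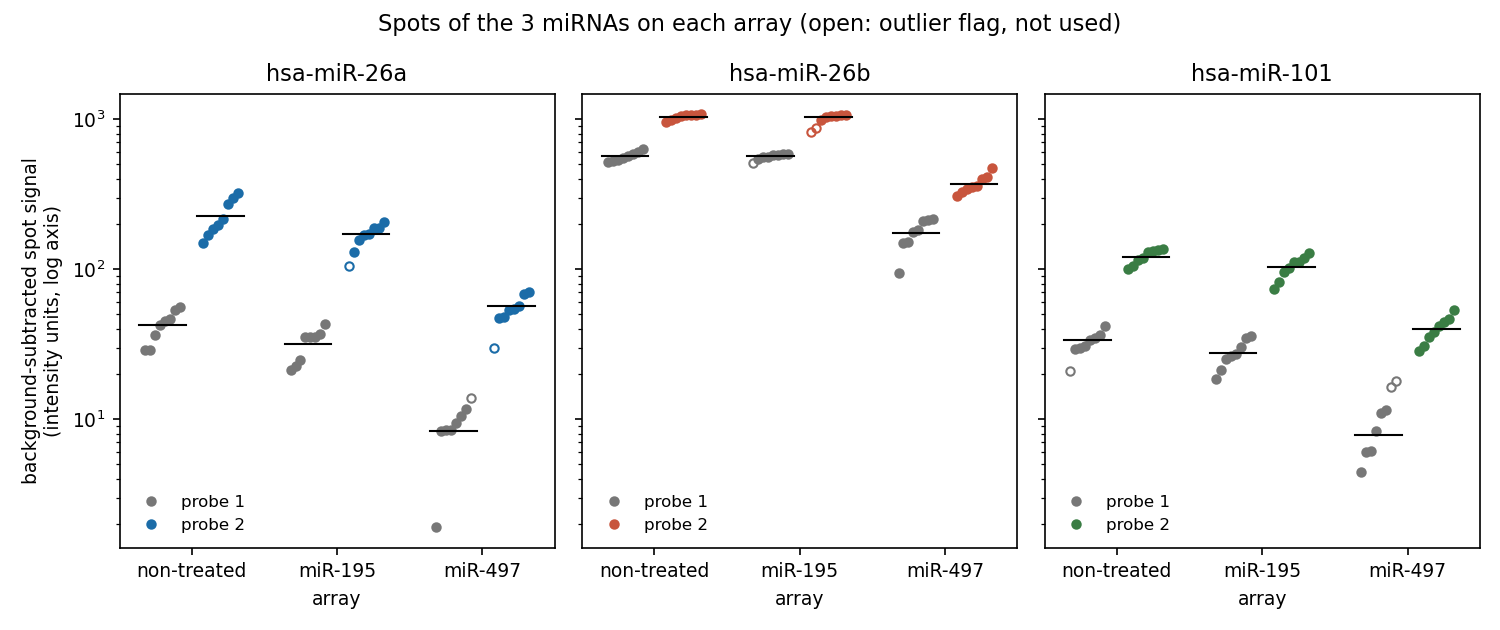
Background-subtracted signal of every spot of the 3 miRNAs (intensity units, log axis) on the NT, miR-195 and miR-497 arrays, by probe, with the probe mean as a line and spots with an outlier flag open. Spots on the NT and miR-195 arrays overlap for each probe, whereas the used spots on the miR-497 array lie below all those of the other arrays.

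Each miRNA was read by a dimmer and a brighter probe, which ran in the same direction in every comparison of unscaled signals. The dimmer probe of miR-26a averaged 42.2, 31.7 and 8.38 units on the NT, miR-195 and miR-497 arrays, and the brighter probe 226, 173 and 57.0 units. On the miR-497 array 0 of 7 used spots of the dimmer probe were well above background, so that the value there rested on the brighter probe. The probes of miR-26b averaged 565, 568 and 174 units and 1035, 1039 and 372 units, and both were well above background on every array. For miR-101 the dimmer probe averaged 33.7, 27.4 and 7.88 units and the brighter one 121, 103 and 39.9. As with miR-26a, the dimmer probe of miR-101 was not well above background on the miR-497 array, with 0 of 6 used spots. For each of the 6 probes the used spots overlapped between the NT and miR-195 arrays, and for none between the miR-497 array and either of the other arrays. These spots are unscaled, and the whole miR-497 array was dim. Unscaled signal was lower there for 116 of 118 measured miRNAs against NT and for 117 of 117 against the miR-195 array. Spot overlap was not counted for the probes of other miRNAs, so the separation is not particular to the 3 members.

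The spots of miR-26a on the NT array were unusually uneven. The coefficient of variation between spots was 23.8% for its dimmer probe and 28.4% for its brighter probe, and of the 282 probes well above background on that array 9 and 3 had a larger one, the median being 9.40%. The spots of the brighter probe ran from 150 to 324 units, and none carried an outlier flag. Uneven spots were not limited to the NT array or to miR-26a. On the miR-195 array the dimmer and brighter miR-26a probes had coefficients of 24.5% and 14.4%, and the miR-101 probes 22.3% and 17.9%. The median there was 8.19% over 266 probes, of which 3, 39, 8 and 14 had a larger one. By contrast, the miR-26b probes had coefficients of 7.17% and 4.29% on the NT array and of 2.88% and 2.65% on the miR-195 array. On the dimmer miR-497 array they were 23.7% and 14.5%, against a median of 11.6% over 190 probes. The uneven NT spots widen the spot SD of every difference of miR-26a from the NT array.

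After each array was scaled to its 75th percentile, most of the gap between the miR-497 array and the others was gone. Relative to that percentile miR-26a stood at 32.5%, 26.3% and 24.8% on the NT, miR-195 and miR-497 arrays, miR-26b at 194%, 206% and 207%, and miR-101 at 18.7%, 16.7% and 18.1%. The order of the arrays was thus different for each miRNA, with NT highest for miR-26a, lowest for miR-26b, and highest for miR-101 by a small margin.

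Between the miR-195 and NT arrays none of the 3 miRNAs differed by 2-fold, a size passed by 3.40% of the 147 human miRNAs measured on both, the transfected ones left out (4 higher, or 2.72%, and 1 lower, or 0.680%, against 1 and 9 with the percentile over all probes). The scaled log2 difference, miR-195 minus NT, was -0.31 for miR-26a with a spot SD of 0.40, a level of 0.808 times that on the NT array. It was 0.09 for miR-26b with a spot SD of 0.061, and -0.16 for miR-101 with a spot SD of 0.25. The miR-26b difference, small as it is, was the only one of all 9 that exceeded its spot SD, at 1.53 SDs. It rested on the spot filter, since 3 of 16 miR-26b spots on the miR-195 array carried an outlier flag. These were the lowest spots of their probes, and with all spots kept the difference was 0.025, inside the spot SD. The miR-26b difference turned to -0.44 with the percentile taken over all probes, to -0.08 after quantile normalization and to -0.01 in the deposited table. That of miR-26a turned to 0.08 and that of miR-101 to 0.23 when arrays were scaled to the labelling spike-in. Ranked from the lowest of the 147, miR-26a was at 19, miR-101 at 41 and miR-26b at 92, against a median difference of -0.01 over all of them, with quartiles of -0.19 and 0.20.

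Between the miR-497 and NT arrays none of the 3 passed 2-fold after scaling either, where 3.39% of 118 measured miRNAs did. The log2 differences, miR-497 minus NT, were -0.39 for miR-26a with a spot SD of 0.41, 0.10 for miR-26b with a spot SD of 0.19 and -0.05 for miR-101 with a spot SD of 0.30. All lay within 1 spot SD of 0. For miR-26a the dimmer probe, not well above background on the miR-497 array, gave -0.68 and the brighter one -0.34. The probes differed in sign for miR-26b, at -0.05 and 0.17, and for miR-101, at -0.44 for the dimmer probe, which was not well above background on the miR-497 array, and 0.05 for the brighter one. Ranked from the lowest of the 118, miR-26a was at 9, miR-101 at 46 and miR-26b at 65, and the median was 0.03 with quartiles of -0.12 and 0.26. Without scaling the same differences were -2.04, -1.55 and -1.70, all beyond 2-fold, the signals being 24.3%, 34.1% and 30.8% of those on the NT array. That lower signal was shared by 116 of the 118 miRNAs, whose unscaled median was -1.62, so that the size of these differences rests on the scaling. The sign of miR-26b rests on it too, and so does that of miR-101, which was 0.06 with median scaling. Of the 118 miRNAs, 4 were at least 2-fold higher and 0 at least 2-fold lower after scaling, against 0 and 113 without scaling, 1 and 110 with the percentile over all probes and 1 and 59 with the labelling spike-in. Without scaling, or with the percentile over all probes, the 3 miRNAs were among those at least 2-fold lower.

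With the median over measured miRNAs subtracted, a quantity that no choice of a single scaling factor alters, miR-26a stood at -0.30 in miR-195 minus NT and at -0.42 in miR-497 minus NT. miR-26b stood at 0.10 and 0.07, and miR-101 at -0.16 and -0.07. These values share the NT array with its uneven miR-26a spots. They do depend on the background correction and the summary, since the difference of miR-26a in miR-497 minus NT turned to 0.34 with normexp background and to 2.70 with scaled software totals, and that of miR-101 to 0.72 and 1.33. Blood cell markers were lower beside miR-26a in the second comparison, with scaled differences of -0.57 for miR-486-5p, -0.29 for miR-142-3p and -0.09 for miR-142-5p, where the first gave -0.20, -0.20 and 0.01. Their part in the result was not tested.

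The mimics were also compared directly. The log2 difference, miR-497 minus miR-195, was -0.08 for miR-26a, 0.01 for miR-26b and 0.12 for miR-101, with spot SDs of 0.28, 0.18 and 0.34. The dimmer and brighter probes gave -0.36 and -0.03 for miR-26a, -0.14 and 0.08 for miR-26b, and -0.23 and 0.20 for miR-101. Of these, the dimmer probes of miR-26a and miR-101 were not well above background on the miR-497 array. None of the 3 miRNAs passed 2-fold, as 1.71% of 117 measured miRNAs did (2 higher and 0 lower, or 0 and 114 without scaling). Their ranks from the lowest were 30, 52 and 75. Without scaling all 3 passed 2-fold towards lower values with the miR-497 mimic, at -1.64 for miR-26a, -1.56 for miR-26b and -1.45 for miR-101, and with the labelling spike-in they were at -1.50, -1.42 and -1.31. The signs of miR-26b and miR-101 thus turned, and that of miR-26a turned to 0.04 with median scaling. With 1 array a mimic, the spot SDs of the scaled differences cover the spread of spots within arrays only. They hold nothing of the spread between arrays and do not show that the mimics act alike.

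**Figure D2:**
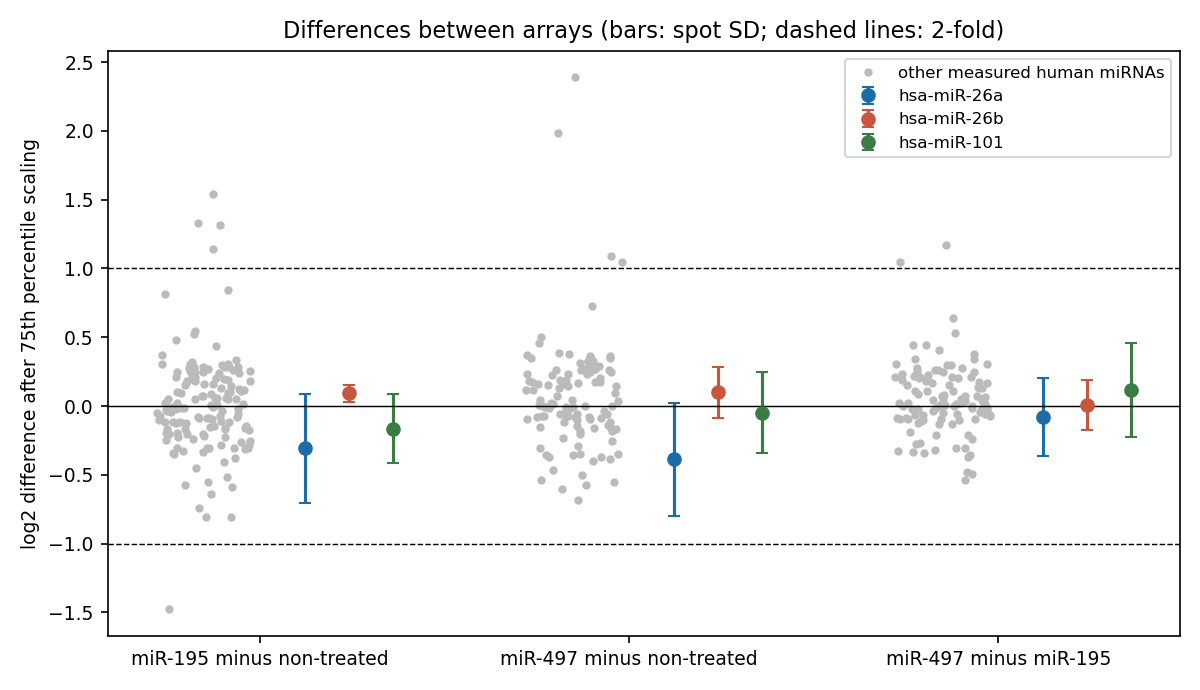
Scaled log2 differences between arrays for miR-26a, miR-26b and miR-101 (coloured points, bars of 1 spot SD) beside all other human miRNAs measured on both arrays (grey), with dashed lines at 2-fold. The 3 miRNAs lie between -0.39 and 0.12, inside the dashed lines in each comparison.

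The ratio of one miRNA to another within an array does not depend on scaling, and shows unequal change without saying which of the pair changed. The log2 ratio of miR-26a to miR-26b, which share a seed and most of their sequence, differed by -0.40 in miR-195 minus NT and by -0.49 in miR-497 minus NT, with spot SDs of 0.40 and 0.45. Between the mimic arrays it differed by -0.09, with a spot SD of 0.34. The ratio of miR-101 to miR-26b changed by -0.26 and -0.15 against the NT array, with spot SDs of 0.26 and 0.35, and that of miR-101 to miR-26a by 0.14 and 0.34, with spot SDs of 0.47 and 0.51. The change in the miR-26 pair was at most 1.08 times its spot SD. On the miR-497 array some of these changes turned with the normexp background correction, and also with software totals. The miR-26a to miR-26b change in miR-497 minus NT was 0.24 with normexp and 2.57 with software totals. The miR-101 to miR-26b change was 0.63 and 1.20. On that array the software totals of miR-26a and miR-101 held the total of another name, as described below. How far the probes of miR-26a also bind miR-26b, or the reverse, was not tested.

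The deposited table gave another picture for miR-26a and miR-101 on the miR-497 array. Its log2 values were 7.12, 6.72 and 8.17 for miR-26a on the NT, miR-195 and miR-497 arrays, 9.70, 9.69 and 8.18 for miR-26b, and 6.33, 6.07 and 6.01 for miR-101. In that table miR-26a was therefore 2.07-fold higher with the miR-497 mimic than in NT cells, although every used spot of its probes had a lower unscaled signal there. These values are the log2 of the total that the scanner software gives per miRNA. On the miR-497 array the total of miR-26a was 288 units. Its own significant probe (a probe total above 3 times its error) gave 30.3 units of these. The remaining 258 units, 89.5% of the total, equalled the total of hsa-miR-25, the detected name before it in alphabetical order, to within 0.0007 units.

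For miR-101 on the same array the total was 64.6 units, its own significant probe gave 21.2, and the remaining 43.4 units, 67.2% of the total, equalled the total of hsa-let-7i, again the detected name before it, to within 0.0001 units. In both cases the first probe was below the limit for a significant probe, with 4.45 units at an error of 1.96 for miR-26a and 4.18 at an error of 1.95 for miR-101. On the NT and miR-195 arrays, where both probes were significant, the totals of the 3 miRNAs equalled the sum of their own probes to within 0.001 units, as did that of miR-26b on the miR-497 array. From their own significant probes alone, the unscaled log2 difference, miR-497 minus NT, was -2.20 for miR-26a in place of 1.05, and -1.93 for miR-101 in place of -0.32. Totals above the sum of the own significant probes (by more than 0.3% plus 0.02 units) were found for 61 of 202, 64 of 200 and 47 of 150 detected names on the NT, miR-195 and miR-497 arrays.

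**Figure D3:**
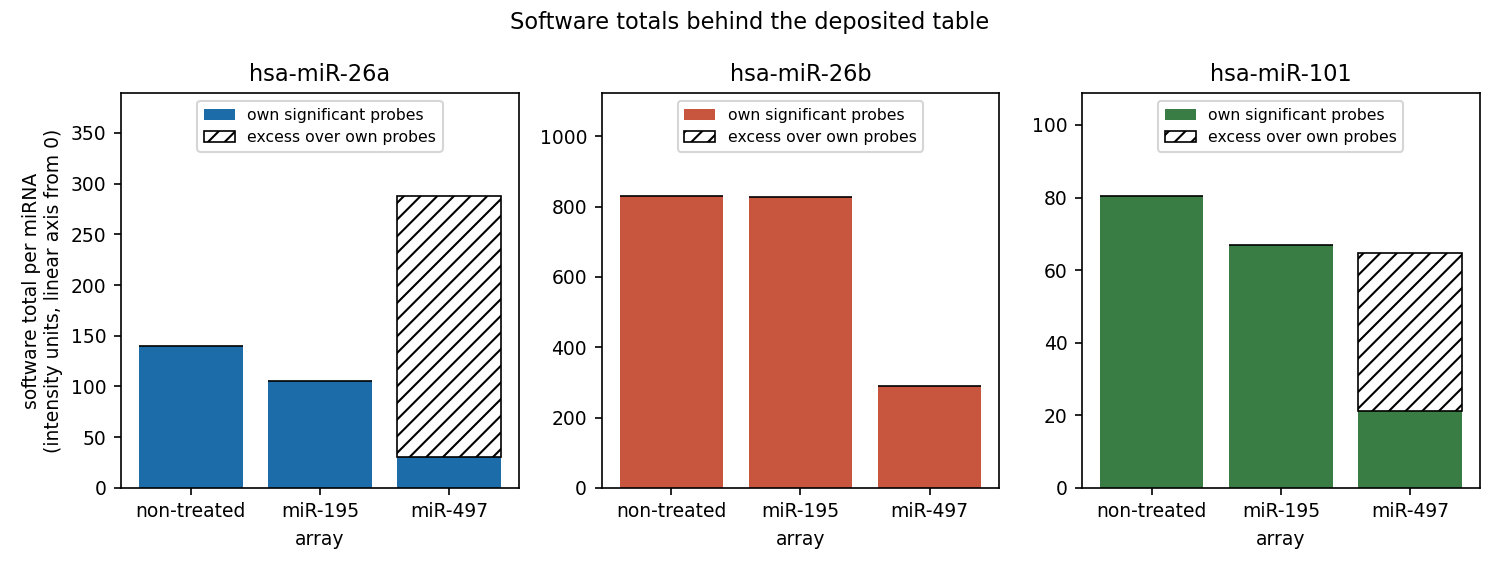
Software total per miRNA (intensity units, linear axis from 0) on each array, split into the part from the miRNA's own significant probes (filled) and the excess (hatched). The excess makes up 89.5% of the miR-26a total and 67.2% of the miR-101 total on the miR-497 array and is absent from the other bars.

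Relatives of the 3 miRNAs were searched by name. The passenger strands, the other arm of each hairpin, are usually degraded when the guide arm is loaded. None of the 4 (hsa-miR-26a-1*, hsa-miR-26a-2*, hsa-miR-26b* and hsa-miR-101*) was well above background on any array, their signals lying between -5.48 and 25.5 units. The seed relatives miR-1297 and miR-144 stayed at background throughout, at -12.0 to 0.27 units. Among the names examined, the seed UCAAGUA was thus measured in miR-26a and miR-26b alone. For the seed ACAGUAC no name besides miR-101 was examined, since the seed of miR-144 differs from it.

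Other miRNAs known to act on EZH2 were described for comparison. Of the 15 listed, 8 were well above background on the NT array, 7 with the miR-195 mimic and 6 with the miR-497 mimic. Over all 851 human names the counts were 168, 153 and 121, so detection fell on the whole array in the same order. All of those detected were of the let-7 and miR-98 family, which shares 1 seed and whose close sequences may share probe signal. let-7c, miR-124, miR-137, miR-138, miR-144, miR-214 and miR-217 were at background throughout. None of those measured passed 2-fold after scaling, where 3.40%, 3.39% and 1.71% of all measured miRNAs did in the 3 comparisons. Without scaling the 6 measured on the miR-497 array were all at least 2-fold lower there than on the NT array, from let-7i at -1.50 to let-7d at -2.02. The median of the list was -0.09 in miR-195 minus NT, 0.07 in miR-497 minus NT and 0.00 in miR-497 minus miR-195, beside -0.01, 0.03 and 0.02 over all measured miRNAs. The lowest member in both comparisons with the NT array was let-7d, at -0.30 and -0.37, and the highest was let-7i, at 0.28 and 0.15.

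The miRNAs most like each member over the 3 arrays were found among 114 others well above background on each of them, by the root mean square distance between scaled log2 values centred on their own mean. For miR-26a they were let-7d, at a distance of 0.0082, miR-24, at 0.0098, and miR-93, at 0.034. For miR-26b they were miR-24-1* and miR-141, both at 0.031, and let-7a, at 0.033. For miR-101 they were miR-331-3p, miR-18a and miR-15b, at 0.018, 0.026 and 0.028. miR-26b came only at place 58 from miR-26a, at 0.21, the median distance being also 0.21, and miR-101 at place 29. With 3 arrays, likeness of this kind is a description only.

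The members are rich in A and U. GC content was 40.9% for miR-26a and 33.3% for miR-26b and miR-101, and sequences were matched for 99 of the 117 miRNAs well above background on all arrays (84.6%). The 35 other miRNAs within that range of GC content had median differences of 0.01 in miR-195 minus NT, 0.15 in miR-497 minus NT and 0.02 in miR-497 minus miR-195. Of these, 2, 2 and 7 were at or below miR-26a, whereas 21, 13 and 15 were at or below miR-26b and 8, 10 and 21 at or below miR-101. miR-26a thus lay towards the low end among these miRNAs in both comparisons with the NT array, though both of its differences were within 1 spot SD of 0. Its GC content is the upper end of the range, so miRNAs of slightly higher GC content were not compared.

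Under alternative scalings, backgrounds, spot filters and summaries of a miRNA, 52 of 126 recomputed differences moved by 1 spot SD or more. The difference of miR-26a, miR-497 minus NT, ran from -2.20 to 2.70 over 14 alternatives, and that of miR-101 from -1.93 to 1.33. Both upper ends came from the software totals, which held the excess described above. For miR-26b the same difference ran from -1.55 to 0.21. In miR-195 minus NT the ranges were narrower, from -0.85 to 0.08 for miR-26a, -0.44 to 0.48 for miR-26b and -0.70 to 0.23 for miR-101, and none of them reached 2-fold.

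**Figure D4:**
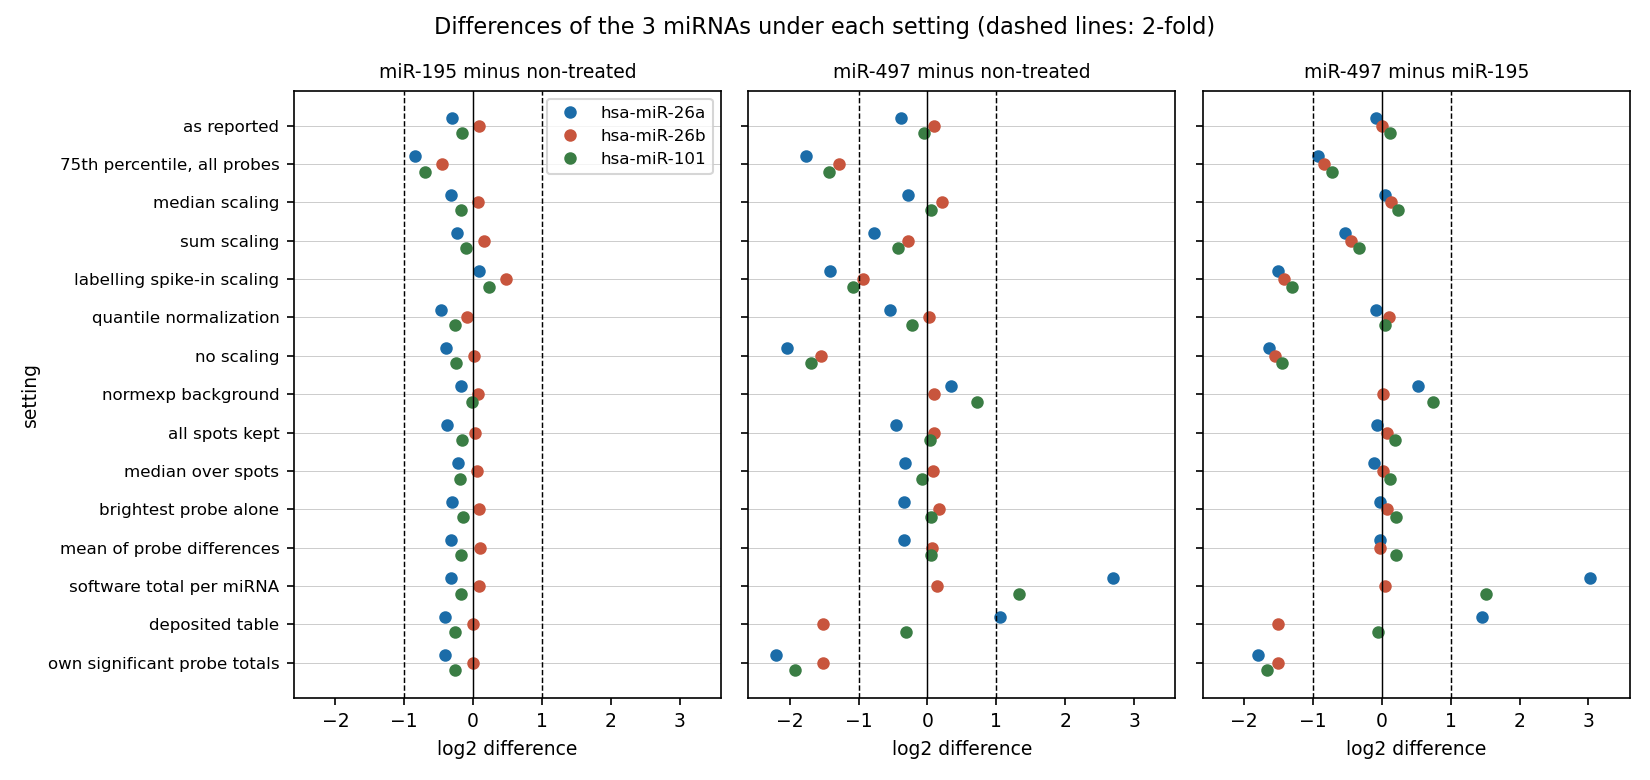
Log2 differences of miR-26a, miR-26b and miR-101 between arrays under the reported setting and 14 alternatives, with dashed lines at 2-fold. In miR-195 minus NT all points lie inside 2-fold, whereas in the comparisons with the miR-497 array unscaled signals lie between -1.45 and -2.04 and the software totals of miR-26a and miR-101 lie above 1.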

How the data were processed

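Scanner files of 3 arrays (1 slide, 1 scan, 1 array per group) were used. Per the file headers, Agilent Feature Extraction 10.7.1.1 gave spot intensity on a linear scale, background-subtracted and detrended within each array and not scaled between arrays, with detection and outlier flags and software totals. A further table deposited by the authors held log2 values from GeneSpring GX, with raw signals set to at least 1. Groups came from the labels. The methods state that samples were analysed in duplicate, and further arrays were not analysed here.

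Signals were averaged over unflagged spots per probe, summed per miRNA and scaled on the log2 scale to the 75th percentile of probes detected on all arrays. Detection (well above background) required the scanner flag in over 50% of the used spots of a probe, and 1 such probe for a miRNA. Spot SDs of 2 arrays were combined for differences. The number of arrays limits the precision. The summary was tested on simulated data. The miRNAs changed there were all brighter on the NT array than miR-26a and miR-101. They were changed by more than the scaled differences of the members, so the test does not cover dim signals or small differences. Alternatives covered scaling, normexp background (limma 3.58.1, offset 50, on median pixel signals), spots, the summary of a miRNA, detection, dim miRNAs and the deposited table. Named were the members, the listed miRNAs and, for each member, the 3 miRNAs closest in pattern. The members and lists were chosen with earlier results of these data known. Array names were matched to RefSeq arm names by hand. Coordinates are not given, since the headers name hg19 and the RefSeq tables GRCh38.p14. Python 3.11.15 and R 4.3.3 were used.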

Additional observations from a re-analysis of the deposited data

How the results depend on the processing

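Of 126 member differences recomputed under 14 alternatives, 74 stayed within 1 spot SD of the reported value, among them all 9 under median scaling, the median over spots, the brightest probe alone and the mean of probe differences. With 1 array a group no call could be gained or lost. The software totals of miR-26a and miR-101 on the miR-497 array, and with them the deposited table, held the excess described above. Under each single scaling factor the members moved by the same amount as the median of all measured miRNAs. In miR-497 minus NT that was -1.38 with the percentile over all probes, -1.03 with the labelling spike-in and -1.65 without scaling. Why the scaling factors differ, and the cause of the remaining moves, was not tested. Differences are given below as miR-195 minus NT, then miR-497 minus NT, then miR-497 minus miR-195. With the percentile over all probes, detected or not, miR-26a gave -0.85, -1.77 and -0.93, miR-26b -0.44, -1.28 and -0.84, and miR-101 -0.70, -1.43 and -0.73. Without scaling miR-26a gave -2.04 and -1.64 in the comparisons with the miR-497 array, miR-26b 0.0067, -1.55 and -1.56, and miR-101 -1.70 and -1.45 in those with the miR-497 array. Scaled to the labelling spike-in, miR-26a gave -1.42 and -1.50 in the last pair of comparisons, miR-26b 0.48, -0.93 and -1.42, and miR-101 0.23, -1.08 and -1.31. Sum scaling gave -0.53 for miR-26a in the last comparison, 0.16, -0.29 and -0.45 for miR-26b, and -0.43 and -0.34 for miR-101 in the comparisons with the miR-497 array. The difference of miR-26b in miR-195 minus NT became -0.084 after quantile normalization and 0.025 with all spots kept.

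In the comparisons with the miR-497 array the background correction and the software totals turned values upward. normexp, whose offset raises dim signals, gave 0.34 and 0.52 for miR-26a and 0.72 and 0.74 for miR-101. Scaled software totals gave 2.70 and 3.02 for miR-26a and 1.33 and 1.51 for miR-101. The deposited table gave 1.05 and 1.45 for miR-26a, and for miR-26b -0.0066, -1.52 and -1.51 over the 3 comparisons. The totals of own significant probes without scaling, an alternative chosen after seeing the data, gave -2.20 and -1.80 for miR-26a, the values of the deposited table for miR-26b, and -1.93 and -1.66 for miR-101.

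Of 45 recomputed changes of ratio, 35 stayed within 1 spot SD, and the other 10 were in comparisons with the miR-497 array, under normexp or software totals. In miR-497 minus miR-195 the miR-26a to miR-26b change was 0.50 with normexp and 2.97 with software totals, and that of miR-101 to miR-26b 0.72 and 1.46. The miR-101 to miR-26a change was -1.36 in miR-497 minus NT and -1.51 in miR-497 minus miR-195 with software totals.

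Counts of measured miRNAs at least 2-fold apart followed the scaling. In miR-195 minus NT, 4 higher and 1 lower became 1 and 9 with the percentile over all probes, 2 and 0 with normexp, and 2 and 0 without dim miRNAs. In miR-497 minus NT, 4 higher and 0 lower became 1 and 110 with the percentile over all probes, 1 and 59 with the spike-in, 0 and 113 without scaling, and 10 and 0 with normexp. In miR-497 minus miR-195, 2 higher and 0 lower became 0 and 17, 0 and 111, and 0 and 114 under those 3 scalings, 7 and 0 with normexp, and 1 higher with quantile normalization or with all spots of a probe required to be well above background. No paired analysis was possible because each group held 1 array, all with the number 1. The dimmer probes of miR-26a and miR-101 were not well above background on the miR-497 array, which limits what that array shows of them.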
